A study of Mus musculus with 4 samples.

Results

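The subject of the following description is the genes for ionotropic and metabotropic glutamate receptor subunits and for GABA-A and GABA-B receptor subunits. They were examined in primary (1°) mouse oligodendroglial cells (OGCs) with or without conditional deletion of Zfp276, a zinc finger protein of the oligodendroglial lineage. Members were chosen by gene symbol alone, as all Gria, Grik, Grid, Grin and Grm genes, all Gabr genes with a subunit symbol, Gabbr1 and Gabbr2. This gave 47 of the 53465 genes in the count files, 26 for glutamate and 21 for GABA receptors. RNA-Seq had been performed on OGCs from the forebrain of mice aged P2 to P4 after 3 days of differentiation (3ddiff). There were 2 ctrl libraries (Zfp276 fl/fl without Cre) and 2 Zfp276cko libraries (Sox10::Cre tg; Zfp276 fl/fl), each an independent preparation from 3 mice. In both genotypes exons 2 to 5 of Zfp276 are flanked by loxP sites, and Cre under control of Sox10 removes them in cells that express the transgene. A Rosa26 stopfloxtdTomato allele had been crossed into the mice used for culture in order to identify Zfp276cko newborns. Cultures passed through a mixed glial stage, shake-off and microglial depletion.

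Fast transmission by glutamate runs through tetrameric cation channels of the AMPA, kainate and NMDA type, whereas metabotropic glutamate receptors (mGluRs) couple to G proteins. GABA-A receptors are pentameric chloride channels built from alpha, beta and other subunits, and GABA-B receptors are obligate heterodimers of Gabbr1 and Gabbr2. Oligodendrocyte precursor cells (OPCs) receive glutamatergic and GABAergic input from neurons, and both kinds of receptor have been linked to their proliferation, migration and differentiation.

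Counted reads per library ranged from 21068322 to 26599809, of which between 37309 and 44703 belonged to receptor subunits. Zfp276 had 1648 and 2230 normalized counts in ctrl and 490 and 503 in Zfp276cko libraries. The study relates the remaining Zfp276 RNA to incomplete deletion, which it also saw by immunostaining of postnatal spinal cord. The count per gene also includes exons outside the deletion. The part of each in the remaining reads was not tested. Of the defining markers, Sox10, Olig1 and Olig2, the OPC markers and Mbp, Mog, Mag, Cnp and Myrf were all well covered, so the labelled cell type was present. The last 5, which mark oligodendrocytes, summed to 183943 and 277168 normalized counts in ctrl and 132242 and 133498 in Zfp276cko libraries, and 5 of 5 were below both ctrl libraries. The ctrl libraries stood apart from each other. In ctrl replicate 1 the 8 fibroblast and vessel markers summed to 5794 against 273, 417 and 351 in ctrl replicate 2 and the Zfp276cko libraries. Many neuronal transcripts were nearly missing from ctrl replicate 1. Ctrl replicate 2 in turn had the highest sum of oligodendrocyte markers and the lowest of microglial markers. Astrocyte markers summed to 37730 and 29111 in ctrl and 34880 and 33148 in Zfp276cko libraries, and microglial markers to 48380 and 25554 in ctrl and 34895 and 36522 in Zfp276cko libraries. The biological coefficient of variation was 0.354 between the ctrl and 0.048 between the Zfp276cko libraries.

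Of the 47 members, 36 had enough reads to be tested and 32 reached a mean of 20 normalized counts. No receptor subunit passed the thresholds of the study in edgeR's quasi-likelihood test, neither lower nor higher in Zfp276cko libraries. The thresholds were a p not above 0.05 after Benjamini-Hochberg adjustment across the 15766 genes tested, a log2 fold change of 0.6 or more in either direction and 20 or more normalized counts on average. Among all tested genes edgeR called 0.00% lower and 0.00% higher. The smallest adjusted p of a member was 0.123. Without adjustment, 7 members had a p not above 0.05, of which 3 passed the other thresholds as lower and 2 as higher. The corresponding shares of all tested genes were 3.02% lower and 5.11% higher, against 8.33% and 5.56% of the members. DESeq2's Wald test, the tool of the study, called 3 of 35 members lower (8.57%), Grik3 and Gabbr2 among them, and none higher. Among all genes it tested, 2.11% were called lower and 2.80% higher. With 2 libraries per genotype, an exact permutation test of a single gene cannot go below a two-sided p of 0.333.

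**Figure D1:**
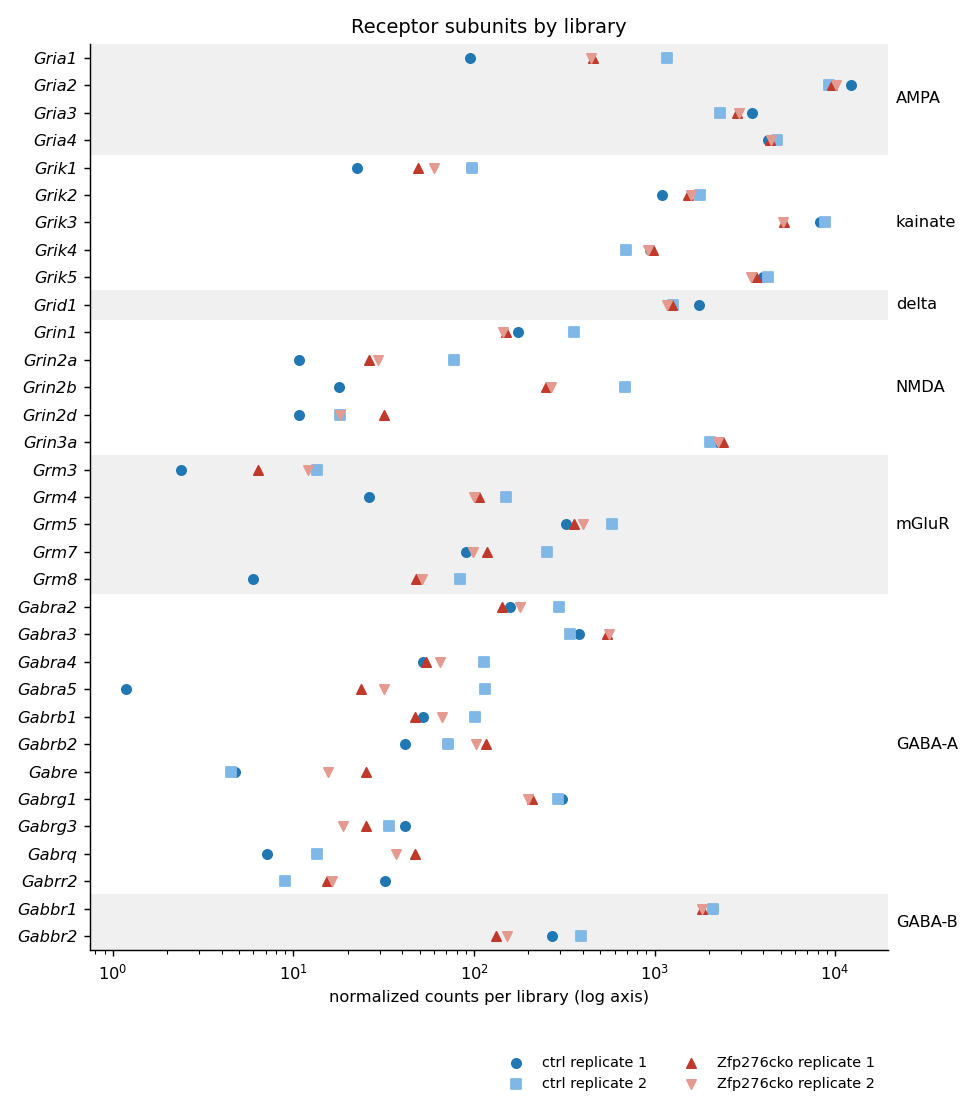
Normalized counts (horizontal log axis) of 33 tested receptor subunits in each of the 4 libraries, grouped by receptor family. Zfp276cko replicates (triangles) differ by less than 2-fold for every gene, the most for Grm3 and Grin2d, whereas ctrl replicate 1 (circles) lies far to the left of ctrl replicate 2 (squares) for genes such as Gria1, Grin2b and Gabra5.

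The genotypes did not overlap for 15 members, with the Zfp276cko libraries lower for 9 (25.0%) and higher for 6 (16.7%). Over all tested genes these shares were 23.7% and 26.8%, so the share of members below was close to that of genes in general. The median log2 fold change of the 36 members was −0.24 against −0.0013 for all tested genes, with 23 negative and 13 positive values. It was −0.15 for the 21 tested glutamate and −0.44 for the 15 tested GABA receptor genes. This median turned with the choice of ctrl library, from −0.57 without ctrl replicate 1 to 0.20 when ctrl replicate 2 was left out.

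**Figure D2:**
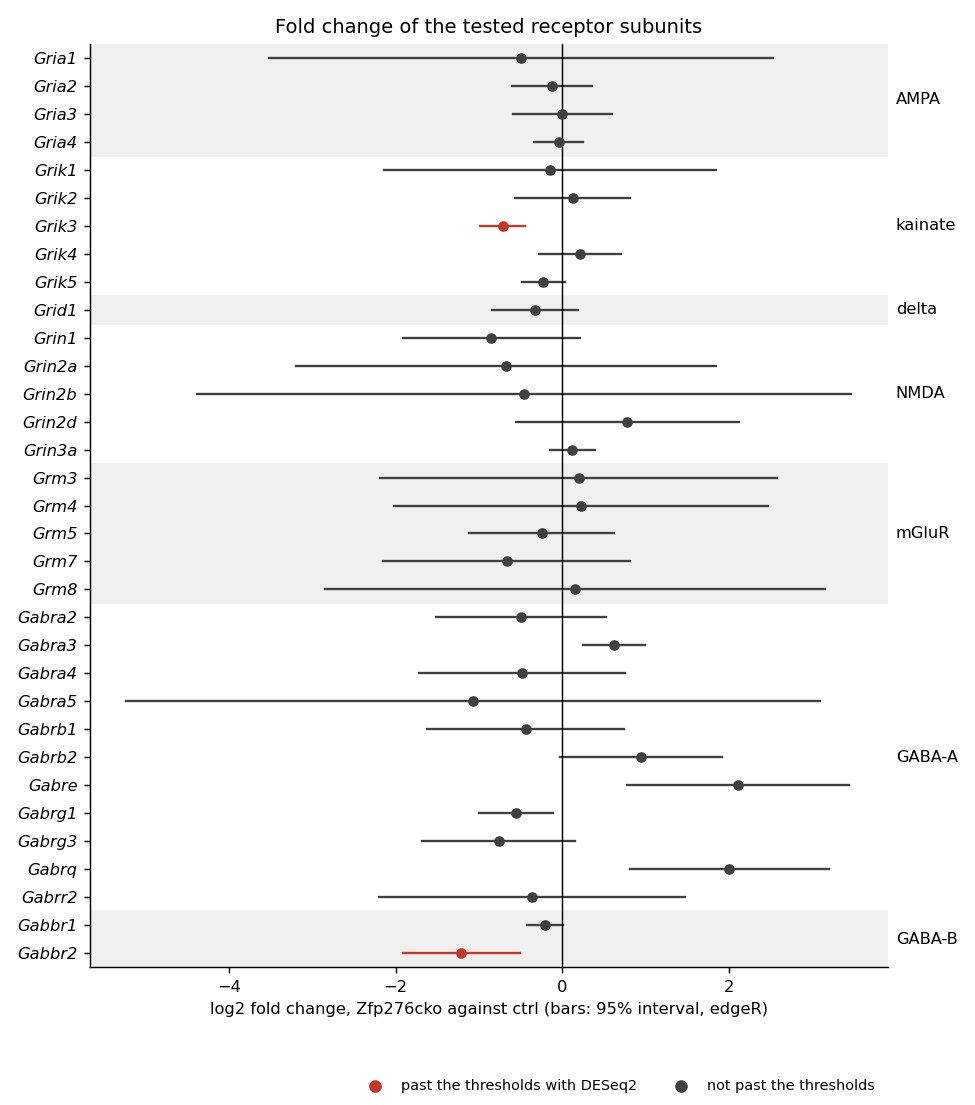
Log2 fold change of 33 tested receptor subunits in Zfp276cko against ctrl cells (points) with its 95% interval from edgeR (bars), by receptor family. Red marks Grik3 and Gabbr2, which passed the thresholds with DESeq2 but not with edgeR, and the widest bars belong to genes on which the ctrl libraries differed.

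Per length of annotated exons, the cultures were dominated by few subunits. Mean levels were 32.3 RPKM (reads per kilobase of exon, scaled to library size) for Grik3, 31.4 for Grik5, 29.8 for Gria4 and 28.1 for Gria2. Then followed Gria3 with 12.4, the GABA-B subunit Gabbr1 with 10.7, Grid1 with 9.66 and the NMDA receptor subunit Grin3a with 7.68 RPKM. The order of the first 4 depended on the length used. With the longest annotated transcript in place of all exons, a setting chosen after the data were seen, Grik5 had 43.1, Gria2 42.1, Gria4 34.6 and Grik3 32.3 RPKM. None of the GABA-A subunits reached this range, and Gabra3 had 4.93 RPKM.

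AMPA receptor subunits, which form the main fast glutamate receptors, were present as all 4 genes and none passed the thresholds with either tool. Gria2, whose edited form makes the channel impermeable to calcium, had 12307 and 9212 normalized counts in ctrl and 9665 and 10108 in Zfp276cko libraries. Gria4, another pore-forming subunit, had 4227 and 4787 in ctrl and 4351 and 4415 in Zfp276cko libraries. In both cases the Zfp276cko libraries lay inside the ctrl range, and the 95% interval of the log2 fold change ran from −0.60 to 0.36 for Gria2 and from −0.33 to 0.25 for Gria4. Gria3 had 3470 and 2298 in ctrl and 2843 and 2934 in Zfp276cko libraries, again between the ctrl values. Per exon length Gria4 made up 40.3% and Gria2 37.9% of the AMPA receptor transcripts. Gria1 was the exception in its spread. It had 95 normalized counts in ctrl replicate 1 but 1178 in ctrl replicate 2, with 457 and 445 in the Zfp276cko libraries. Its share of AMPA receptor transcripts was thus 0.859% in one ctrl library and 10.9% in the other, with 4.51% and 4.28% in Zfp276cko libraries.

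Kainate receptor transcripts were mostly Grik3 and Grik5. Grik3, which encodes a low-affinity pore-forming subunit, lies on chromosome 4 (125490700 to 125714173 of mm10, plus strand). It had 8245 and 8756 normalized counts in ctrl and 5237 and 5124 in Zfp276cko libraries. Both Zfp276cko libraries were well below both ctrl libraries, and replicates were close to each other in each genotype. The log2 fold change was −0.71 ± 0.099 (SE, n = 2 per genotype) with an adjusted p of 0.123 in edgeR and 1.21e-05 in DESeq2. Leaving out ctrl replicate 1 gave −0.76, and leaving out ctrl replicate 2 gave −0.68. Grik5 encodes a high-affinity subunit that needs a partner such as Grik3 to form a channel. It had 3994 and 4266 in ctrl and 3627 and 3438 in Zfp276cko libraries, which again did not overlap, but with a log2 fold change of −0.23 ± 0.096 (SE, n = 2) and an adjusted p of 0.368 in edgeR. Per exon length, the share of Grik3 in kainate receptor transcripts was 47.4% and 47.2% in ctrl and 37.1% and 37.5% in Zfp276cko libraries. That of Grik5 was 39.9% in each ctrl and 44.6% and 43.7% in the Zfp276cko libraries. Which of the 2 had the larger share in ctrl depended on the length used. With the longest transcript, Grik5 had 44.9 and 48.0 RPKM in ctrl and 40.8 and 38.7 in Zfp276cko libraries, above Grik3 with 38.9 and 41.3 in ctrl and 24.7 and 24.2 in Zfp276cko libraries.

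The other kainate receptor genes did not share this difference. Grik2 had 1094 and 1786 normalized counts in ctrl and 1540 and 1601 in Zfp276cko libraries. Grik4, the second high-affinity subunit, had 949 and 697 in ctrl and 984 and 925 in Zfp276cko libraries. For both genes at least 1 Zfp276cko library lay between the ctrl values. Grik1 was low, with 22.6 and 97.9 in ctrl and 48.9 and 60.1 in Zfp276cko libraries.

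Delta receptors are related to ionotropic glutamate receptors by sequence but act mainly as synaptic adhesion proteins. Grid1 had 1768 and 1258 normalized counts in ctrl and 1248 and 1173 in Zfp276cko libraries, where the higher Zfp276cko library nearly reached the lower ctrl library.

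NMDA receptors need the obligatory subunit Grin1, and glutamate binds to the Grin2 subunits. By contrast, Grin3a made up 82.5% of the NMDA receptor transcripts per exon length and Grin1 9.53%. Grin3a, which lowers the calcium permeability of the receptor, had 2245 and 2029 normalized counts in ctrl and 2389 and 2248 in Zfp276cko libraries. The 4 libraries were close to each other, and the 95% interval of the log2 fold change was −0.15 to 0.39. Grin1 had 176 and 357 in ctrl and 151 and 144 in Zfp276cko libraries. Both Zfp276cko libraries were below both ctrl libraries, but the ctrl libraries were farther from each other than the lower one from the Zfp276cko libraries. An antisense gene covers 13.5% of the exon length of Grin1, and as the strand setting of the counting is not given, reads there cannot be assigned to either. Grin2b, typical of immature neurons, had 17.8 and 690 in ctrl and 251 and 266 in Zfp276cko libraries. Grin2a had 10.7 and 77.6 in ctrl and 26.2 and 29.2 in Zfp276cko libraries. For both, the Zfp276cko libraries were nearly equal and lay between widely separated ctrl libraries. Grin2d had a mean below 20, and Grin2c and Grin3b had at most 1 and 4 reads per library.

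**Figure D3:**
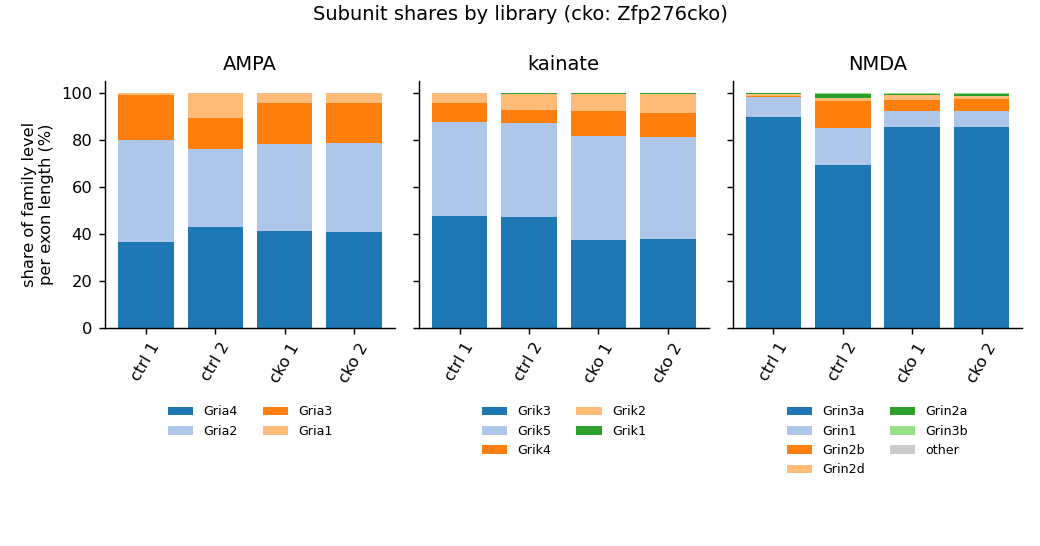
Share (in percent) of each subunit in the level per exon length of its receptor family in the 4 libraries (bars, 1 per library). Grik3 stands at 47.4% and 47.2% in ctrl and at 37.1% and 37.5% in Zfp276cko libraries, whereas Gria1 and Grin2b differ mainly between the ctrl libraries.

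Among mGluRs, Grm5, which couples to phospholipase C, had the highest level per length and made up 47.5% of the family. It had 323 and 578 normalized counts in ctrl and 359 and 401 in Zfp276cko libraries. Grm7, an inhibitory presynaptic receptor, had 90.2 and 253 in ctrl and 118 and 98.8 in Zfp276cko libraries. Both thus stayed within the ctrl range. Of the related group III receptors, Grm4 had 26.1 and 151 in ctrl and 107 and 100 in Zfp276cko libraries. Grm8 had 5.94 and 83.3 in ctrl and 48.0 and 51.5 in Zfp276cko libraries. In each case ctrl replicate 1 was lowest and ctrl replicate 2 highest. Grm3 had a mean below 20. Grm2 had between 0 and 7 reads per library, and Grm6, the receptor of retinal bipolar cells, had none in any library, where 3 reads would be the upper limit allowed by a count of 0.

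Both GABA-B receptor genes were lower in Zfp276cko libraries, to unequal extents. Gabbr2, the subunit that couples to the G protein, lies on chromosome 4 (46662305 to 46991873, minus strand). It had 270 and 390 normalized counts in ctrl and 132 and 153 in Zfp276cko libraries. Every Zfp276cko library was thus below every ctrl library, with a log2 fold change of −1.21 ± 0.260 (SE, n = 2) and an adjusted p of 0.183 in edgeR and 0.00675 in DESeq2. Leaving out ctrl replicate 1 gave −1.45, and leaving out ctrl replicate 2 gave −0.93. Gabbr1, the GABA-binding subunit, had 2105 and 2108 in ctrl and 1828 and 1825 in Zfp276cko libraries. Replicates were almost equal, but the log2 fold change was only −0.21 ± 0.080 (SE, n = 2) with an adjusted p of 0.342 in edgeR. Per exon length Gabbr1 exceeded Gabbr2 in every library, and the share of Gabbr2 was 12.9% and 17.7% in ctrl and 7.74% and 8.87% in Zfp276cko libraries.

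For Grik3 and Gabbr2, the lower sums of the oligodendrocyte markers given above ran in the same direction. The OPC markers Pdgfra, Cspg4, Ptprz1 and Gpr17 summed to 163584 and 122721 normalized counts in ctrl and 86979 and 84678 in Zfp276cko libraries, of which 3 of 4 were below both ctrl libraries. Gpr17 supplied most of this difference, and the other 3 summed to 50179 and 52954 in ctrl against 43684 and 43586 in Zfp276cko libraries. Of the lineage factors, Olig1 had 31743 and 28857 in ctrl and 16810 and 16487 in Zfp276cko libraries, and Olig2 had 13537 and 12402 in ctrl and 8692 and 8392 in Zfp276cko libraries. DESeq2 called both lower, with adjusted p of 3.66e-07 and 0.0013, and edgeR neither. Sox10 had 18135 and 20744 in ctrl and 17805 and 18611 in Zfp276cko libraries, which overlapped. The part of the cell composition in the receptor values was not tested. In such bulk samples, fewer cells of a type and less RNA per cell cannot be told apart.

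Genes for GABA-A subunits are arranged in clusters. The cluster on the X chromosome holds Gabre, Gabra3 and Gabrq within 587 kb, in this order. For each of them both Zfp276cko libraries were above both ctrl libraries, although Gabre and Gabrq had few reads in ctrl libraries. Gabra3 encodes an alpha subunit prominent in the developing brain and lies between 72432681 and 72656848 on the minus strand. It had 380 and 342 normalized counts in ctrl and 547 and 561 in Zfp276cko libraries. This gave a log2 fold change of 0.62 ± 0.137 (SE, n = 2) with an adjusted p of 0.186 in edgeR and 0.0786 in DESeq2. Gabrq, encoding the theta subunit (72825178 to 72842602, plus strand), had 7.12 and 13.5 in ctrl and 47.0 and 36.9 in Zfp276cko libraries. Its log2 fold change was 2.01 ± 0.440 (SE, n = 2) with an adjusted p of 0.184 in edgeR and 0.119 in DESeq2. Gabre, encoding the epsilon subunit (72255999 to 72274803, minus strand), had only 4 reads in each ctrl library against 28 and 18 in Zfp276cko libraries. Its log2 fold change was 2.11 ± 0.491 (SE, n = 2) with an adjusted p of 0.192 in edgeR and 0.326 in DESeq2. Without ctrl replicate 1 and 2, the log2 fold changes were 0.70 and 0.53 for Gabra3, 1.63 and 2.52 for Gabrq and 2.14 and 2.05 for Gabre. As the genotypes did not overlap for these genes, their direction in such fits was largely fixed in advance. The low reads of Gabre and Gabrq leave the size of the change imprecise, with 95% intervals of 0.78 to 3.44 and 0.81 to 3.20. Both had enough reads to be tested only through the Zfp276cko libraries. From ctrl levels this low, a gene lower in Zfp276cko libraries would not have been tested. With at least 10 counts in every library, Gabra3 alone remained of the cluster. Gabre, with a mean of 12.5 normalized counts, was also below the threshold of 20.

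Of the tested genes next to this cluster, 5 on either side were examined. Prrg3, which lies 283 kb before Gabre, had 13.1 and 28.1 normalized counts in ctrl and 95 and 101 in Zfp276cko libraries. It was called higher by DESeq2 with an adjusted p of 0.00441, and by edgeR it had an adjusted p of 0.170. Nsdhl, a sterol synthesis enzyme 76.0 kb behind Gabrq, had 4191 and 1521 in ctrl and 932 and 979 in Zfp276cko libraries and was called lower by DESeq2. The other 8 neighbours were not called by either tool, and neither were the cluster genes. By overlap of the genotypes, Prrg3 and Xlr3b were higher in both Zfp276cko libraries. Xlr3b had 39.2 and 23.6 in ctrl and 59.7 and 46.4 in Zfp276cko libraries. Hmgb3, Cetn2, Nsdhl and F8a were lower in both Zfp276cko libraries, and the others overlapped. Over all tested genes, 26.8% were higher and 23.7% lower in this way. The pattern of the cluster was thus shared by some neighbours and not by others.

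**Figure D4:**
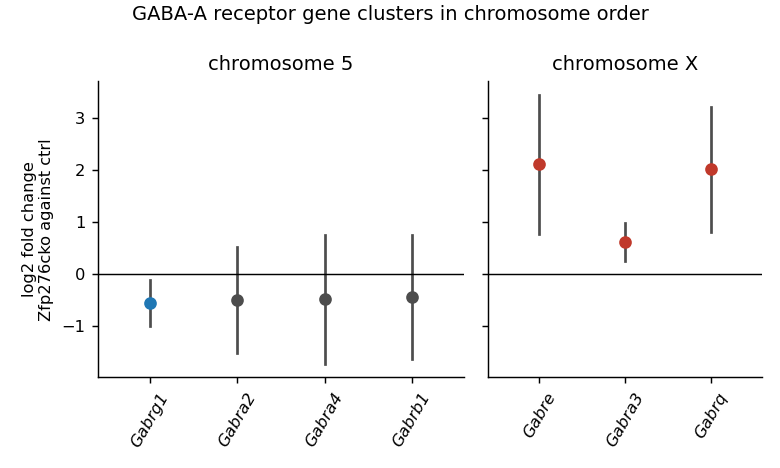
Log2 fold change in Zfp276cko against ctrl cells (points) with its 95% interval from edgeR (bars) of the GABA-A receptor genes in the clusters on chromosomes 5 and X, in chromosome order but not to scale. Red marks genes whose genotypes did not overlap with Zfp276cko higher, and blue those with Zfp276cko lower. Gabre, Gabra3 and Gabrq on the X chromosome are all red, at 2.11, 0.62 and 2.01, and Gabre and Gabrq had few reads in ctrl libraries.

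In the cluster on chromosome 5, only Gabrg1 separated the genotypes. Gabrg1 had 309 and 293 normalized counts in ctrl and 210 and 199 in Zfp276cko libraries. Its log2 fold change was −0.55 ± 0.164 (SE, n = 2) with an adjusted p of 0.252 in edgeR. The gamma subunit it encodes occurs in glial GABA-A receptors. Its neighbour Gabra2 had 158 and 297 in ctrl and 143 and 180 in Zfp276cko libraries. Gabra4 had 52.2 and 114 in ctrl and 54.3 and 64.4 in Zfp276cko libraries, while Gabrb1 had 52.2 and 101 in ctrl and 47.0 and 66.2 in Zfp276cko libraries. All 3 were highest in ctrl replicate 2, and ctrl replicate 1 lay near or within the Zfp276cko values. On chromosome 7, Gabra5 had 1.19 and 115 in ctrl and 23.5 and 31.8 in Zfp276cko libraries. Gabrg3 had 41.6 and 33.8 in ctrl and 25.3 and 18.9 in Zfp276cko libraries, without overlap of the genotypes. Gabra5 thus lay between the ctrl values in both Zfp276cko libraries, and Gabrg3 below them.

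On chromosome 11, Gabrb2, encoding a common beta subunit, had 41.6 and 72.0 normalized counts in ctrl and 117 and 102 in Zfp276cko libraries. The log2 fold change of 0.94 ± 0.357 (SE, n = 2) had an adjusted p of 0.332 in edgeR, and leaving out ctrl replicate 1 gave 0.60 while leaving out ctrl replicate 2 gave 1.38. Both Zfp276cko libraries were above both ctrl libraries. Gabra6, an alpha subunit of cerebellar granule cells, had 0 reads in every library. Gabrr2 had a mean below 20. Gabrd, Gabrr1, Gabrr3 and Gabrp had too few reads to be tested, and Gabrp had none.

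Many receptor subunits differed more between the 2 ctrl libraries than between genotypes. At least 2-fold differences between ctrl replicates were present in 14 of 36 tested members (38.9%), compared with 15.3% of all tested genes. In 13 of the 14 (36.1% of members against 7.71% of all tested genes), ctrl replicate 2 was the higher one. Gabrr2 was the exception, with 32.1 in ctrl replicate 1 and 9.0 in ctrl replicate 2. Between the Zfp276cko replicates, 0 of 36 members differed by this factor (1.17% of all tested genes). The ctrl replicates had 1 and 102 reads for Gabra5, a ratio of 96.7 after normalization (95% exact counting interval 17.0 to 3860).

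**Figure D5:**
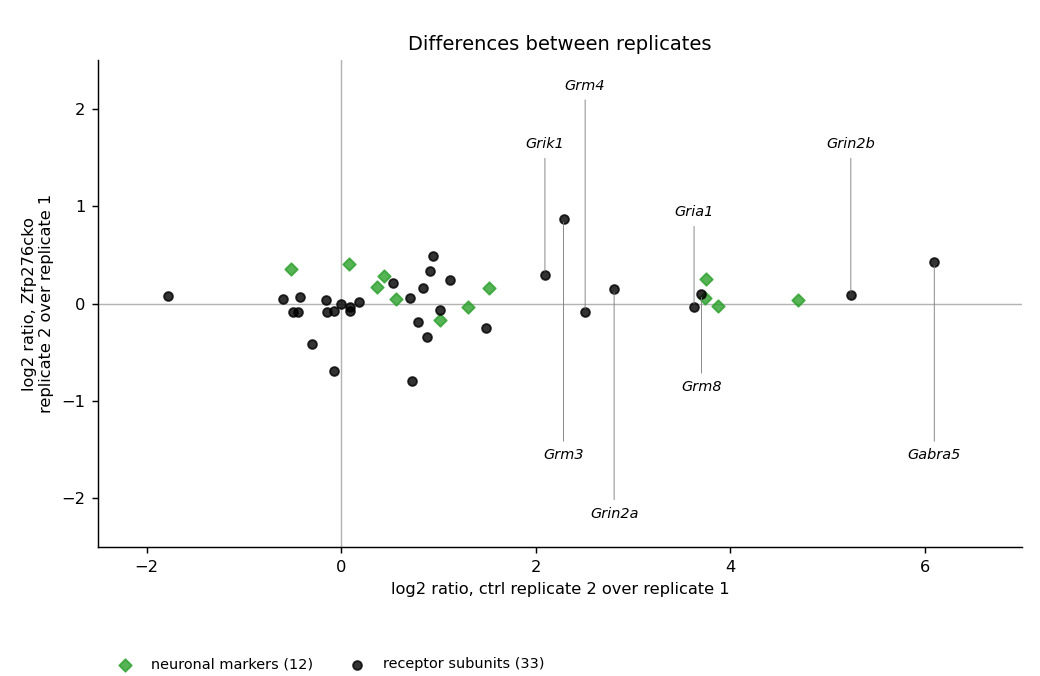
Log2 ratio between replicates of the same genotype for 33 tested receptor subunits (circles) and 12 neuronal markers (diamonds), with the ctrl pair on the horizontal and the Zfp276cko pair on the vertical axis. Subunits spread to the right, up to Gabra5, but stay within 1 of 0 on the vertical axis, and markers such as Syt1 spread likewise.

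Neuronal markers showed the same asymmetry, but differences between the ctrl libraries were not confined to them. Of 9 astrocyte markers, 6 differed at least 2-fold between ctrl replicates, of which 4 were higher in ctrl replicate 2. Of 10 microglial markers, 6 differed in this way, of which 1 was higher in ctrl replicate 2. Of 12 neuronal markers, 7 were at least 2-fold higher in ctrl replicate 2, and none was at 0. The neuronal list summed to 24291 and 38490 normalized counts in ctrl and 26683 and 28989 in Zfp276cko libraries. The sum is dominated by Map2 and Elavl3, which were abundant in all libraries. Syt1 had 33.2 and 874 normalized counts in ctrl and 342 and 351 in Zfp276cko libraries, Snap25 had 35.6 and 484 against 299 and 357, and Rbfox3 had 14.3 and 197 against 106 and 110. Gad1, which synthesizes GABA, had 78.4 and 2002 in ctrl and 920 and 1003 in Zfp276cko libraries. The part of neuronal RNA in the subunit values was not tested.

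For 13 of these 14 subunits the direction between genotypes depended on which ctrl library was used. Grin1 was the exception, with log2 fold changes of −1.27 without ctrl replicate 1 and −0.26 if ctrl replicate 2 was left out. For Grin2b the log2 fold change turned from −1.41 without ctrl replicate 1 to 3.84 when ctrl replicate 2 was left out. For Gria1 these values were −1.38 and 2.23, and for Gabra5 −2.04 and 4.40. No direction can be given for the 13. Grik3, Gabbr2 and the X-chromosomal subunits were not among the 14 genes.

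Promoter sequences of RefSeq (build GRCm38.p6, from 250 bases before to 50 bases after the start) were matched by symbol for 32 of the 47 members, which have 39 starts. Those of some genes that separated the genotypes follow, with the first 50 transcribed bases in capitals. They comprise Grik3 (chr4:125490446-125490745, plus strand) and Gabbr2 (chr4:46991665-46991964, minus strand), which were lower in Zfp276cko libraries. The others are Gabre (chrX:72274672-72274971, minus strand), Gabra3 (chrX:72656758-72657057, minus strand, 1 of its starts) and Gabrq (chrX:72824928-72825227, plus strand), which were higher.
Grik3: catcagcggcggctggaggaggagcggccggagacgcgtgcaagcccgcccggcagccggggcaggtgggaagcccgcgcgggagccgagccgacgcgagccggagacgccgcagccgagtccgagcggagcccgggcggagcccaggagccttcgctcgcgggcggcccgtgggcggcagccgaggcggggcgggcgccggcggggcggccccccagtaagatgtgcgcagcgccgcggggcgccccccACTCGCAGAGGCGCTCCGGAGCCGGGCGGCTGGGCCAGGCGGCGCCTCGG
Gabbr2: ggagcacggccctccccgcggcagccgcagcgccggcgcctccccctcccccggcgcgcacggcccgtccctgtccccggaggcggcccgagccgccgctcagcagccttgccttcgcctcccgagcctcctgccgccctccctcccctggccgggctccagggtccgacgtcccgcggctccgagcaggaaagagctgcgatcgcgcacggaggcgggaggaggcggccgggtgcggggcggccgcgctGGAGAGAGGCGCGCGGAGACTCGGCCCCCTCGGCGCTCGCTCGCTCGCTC
Gabre: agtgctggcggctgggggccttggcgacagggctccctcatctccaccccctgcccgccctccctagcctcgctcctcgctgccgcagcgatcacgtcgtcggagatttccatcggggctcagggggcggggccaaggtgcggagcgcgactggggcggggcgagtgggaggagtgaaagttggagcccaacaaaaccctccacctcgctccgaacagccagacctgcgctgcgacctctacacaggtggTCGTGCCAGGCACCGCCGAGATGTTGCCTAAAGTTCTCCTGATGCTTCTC
Gabra3: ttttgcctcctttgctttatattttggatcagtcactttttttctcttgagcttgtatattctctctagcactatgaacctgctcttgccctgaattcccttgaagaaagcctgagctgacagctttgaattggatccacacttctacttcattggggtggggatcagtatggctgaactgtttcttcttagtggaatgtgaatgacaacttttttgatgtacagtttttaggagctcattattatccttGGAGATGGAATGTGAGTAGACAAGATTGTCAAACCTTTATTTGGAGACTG
Gabrq: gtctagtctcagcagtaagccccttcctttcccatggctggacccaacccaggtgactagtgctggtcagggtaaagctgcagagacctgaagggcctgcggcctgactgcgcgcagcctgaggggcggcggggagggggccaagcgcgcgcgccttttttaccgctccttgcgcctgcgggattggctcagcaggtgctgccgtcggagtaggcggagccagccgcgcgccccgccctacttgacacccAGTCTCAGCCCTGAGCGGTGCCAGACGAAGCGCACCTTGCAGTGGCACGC

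The windows differed in base composition. GC content was 82.0% with 50 CpG in Grik3 and 80.3% with 46 CpG in Gabbr2. Within the X-chromosomal cluster it was 66.7% with 24 CpG in Gabre and 67.0% with 23 CpG in Gabrq, but 39.3% with 0 CpG in Gabra3. The 3 genes of the cluster thus had more reads in Zfp276cko libraries, and the windows shown for them differed in composition. Gabra3 has 2 starts, of which the other is not shown. Which start is used in these cells is not known from counts per gene.

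A sequence preference of Zfp276 is described in the study, which as a consensus starts with A or G, goes on with AAAGGG and ends with C or T followed by G or T. Both strands were searched. AAAGGG alone was present in 10 of 39 member promoters (25.6%) and in 21.5% of all 32851 promoters of the same length. The whole consensus was present in 2 (5.13%) against 2.58% of all promoters, and its stretch AAAAGGGCT, which overlaps the others, in 0 against 0.35%. None of the 5 windows above holds AAAGGG. However, the sites examined in the study lie in conserved regulatory regions away from the starts of the genes. The study also reports that a mismatch in the last positions, which include the last G of AAAGGG, is compatible with binding. A window without AAAGGG can therefore still hold a site, and regions outside the windows were not searched. The whole consensus was found in the promoters of Gria4 (chr9:4796185-4796484, minus strand) and Gabra4 (chr5:71658259-71658558, minus strand), shown with the match in capitals.
Gria4: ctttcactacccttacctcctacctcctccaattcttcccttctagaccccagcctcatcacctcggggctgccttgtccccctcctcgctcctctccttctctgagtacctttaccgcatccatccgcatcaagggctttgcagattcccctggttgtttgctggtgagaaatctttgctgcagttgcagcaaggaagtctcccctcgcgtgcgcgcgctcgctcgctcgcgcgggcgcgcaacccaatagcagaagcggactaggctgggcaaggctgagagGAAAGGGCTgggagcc
Gabra4: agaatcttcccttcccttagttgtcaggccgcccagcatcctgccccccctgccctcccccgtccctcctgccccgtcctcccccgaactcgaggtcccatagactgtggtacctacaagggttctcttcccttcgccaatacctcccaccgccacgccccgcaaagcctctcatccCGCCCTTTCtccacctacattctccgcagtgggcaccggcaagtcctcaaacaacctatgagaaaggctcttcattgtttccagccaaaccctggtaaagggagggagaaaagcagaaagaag

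In Gria4 the match lies within the transcribed bases, and in Gabra4 it begins 73 bases before the start, on the opposite strand. As given above, Gria4 had nearly equal values in all libraries, and Gabra4 was highest in ctrl replicate 2. These matches describe letters and not bound sites.

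Proteins that work with the receptors were examined in 6 lists. None of their genes was called by edgeR. DESeq2 called 3 lower and 2 higher over all lists, whose tested numbers follow. Among all genes it tested, 2.11% were called lower and 2.80% higher. Of 15 tested auxiliary subunits of AMPA and kainate receptors, none was called by either tool, and 1 reached 0.05 before adjustment. The median log2 fold change was −0.22. Both Zfp276cko libraries were lower for 4 (26.7%) and higher for none, beside 23.7% and 26.8% of all tested genes. Cacng4, the most abundant of these by reads and a trafficking protein of AMPA receptors, had 7310 and 5373 normalized counts in ctrl and 4539 and 4675 in Zfp276cko libraries. It thus separated the genotypes, with a log2 fold change of −0.46 and an adjusted p of 0.338 in edgeR. Leaving out ctrl replicate 1 gave −0.22, and leaving out ctrl replicate 2 gave −0.68.

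Of 16 tested scaffold and trafficking genes of glutamate receptors, with a median of −0.04, DESeq2 called Homer1 lower. Homer1 links group I mGluRs such as Grm5 to the scaffold. It had 1656 and 1859 normalized counts in ctrl and 1110 and 1188 in Zfp276cko libraries, which gave a log2 fold change of −0.61 ± 0.106 (SE, n = 2) and an adjusted p of 0.148 in edgeR and 0.00857 in DESeq2. The scaffold gene with most reads, Dlgap1, had 3339 and 4942 in ctrl and 4859 and 5041 in Zfp276cko libraries and did not separate the genotypes.

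Of 12 tested scaffold and trafficking genes of GABA receptors, with a median of −0.12, DESeq2 called Plcl1 lower. Plcl1 encodes a phospholipase C-related protein that binds GABA-A receptor subunits and takes part in their trafficking. It had 1365 and 1605 normalized counts in ctrl and 723 and 785 in Zfp276cko libraries. The log2 fold change was −0.98 ± 0.127 (SE, n = 2) with an adjusted p of 0.121 in edgeR and 2.32e-05 in DESeq2. Nlgn2, the adhesion protein of inhibitory synapses and the gene with most reads in this list, had 9692 and 10322 in ctrl and 8186 and 8188 in Zfp276cko libraries.

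Genes of transmitter handling went in different directions. Of 9 tested genes of glutamate transport and metabolism, with a median of −0.04, DESeq2 called Slc7a11 higher, which exports glutamate in exchange for cystine. It had 1560 and 2258 normalized counts in ctrl and 5319 and 5486 in Zfp276cko libraries, a log2 fold change of 1.5004 ± 0.206 (SE, n = 2) with an adjusted p of 0.123 in edgeR and 9.5e-08 in DESeq2. It changed to 1.26 if ctrl replicate 1 was left out and to 1.78 if ctrl replicate 2 was. The uptake carrier Slc1a1, with most reads in the list, had 18550 and 16977 in ctrl and 17412 and 17738 in Zfp276cko libraries. Of 9 genes of GABA synthesis, breakdown and transport, with a median of −0.23, DESeq2 called Abat lower, the transaminase that degrades GABA. It had 8383 and 11556 in ctrl and 6042 and 6240 in Zfp276cko libraries, a log2 fold change of −0.70 ± 0.187 (SE, n = 2) with an adjusted p of 0.226 in edgeR and 0.0255 in DESeq2. This became −0.91 if ctrl replicate 1 was left out and −0.46 if ctrl replicate 2 was. The gene for GABA release, Slc32a1, was nearly missing from ctrl replicate 1 as were neuronal markers, with 1.19 and 408 in ctrl and 176 and 174 in Zfp276cko libraries.

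Transcripts of several subunits are changed by RNA editing, for which 3 genes were tested. Adar, an adenosine deaminase with an interferon-inducible form, had 2708 and 2503 normalized counts in ctrl and 5611 and 5530 in Zfp276cko libraries. The log2 fold change was 1.096 ± 0.097 (SE, n = 2) with an adjusted p of 0.0962 in edgeR and 2.35e-10 in DESeq2. Adarb1, the enzyme that edits Gria2 in its channel pore, had 398 and 640 in ctrl and 503 and 507 in Zfp276cko libraries and thus stayed between the ctrl values. Counts per gene hold no information on the extent of editing.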

How the data were processed

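RNA-Seq libraries (TruSeq Stranded mRNA, single-end) of 2 ctrl and 2 Zfp276cko preparations were analysed. The authors aligned reads to mm10 with STAR 2.5.4a and deposited raw whole-number counts for each gene symbol. The paper's methods name HTSeq with Ensembl genes and the submitters' processing notes featureCounts 1.5.1 as counter, and the strand setting is not given in the sources used here. Between 21068322 and 26599809 reads per library were counted. From these counts, genes were kept with filterByExpr of edgeR 4.0.16, normalized with TMM and compared with glmQLFit and glmQLFTest (R 4.3.3), without covariates. Normalized counts are counts divided by effective library size and scaled to its mean. Ratios between replicates were taken after adding 0.5. DESeq2 1.42.0 was the alternative. Adjusted p-values cover all tested genes, and p-values measure the spread between preparations only. On simulated counts, of 200 genes changed by 2 on the log2 scale among 15766, edgeR recovered 90.5% and DESeq2 95.0%, with 1 and 16 unchanged genes called. The simulation gave both genotypes the same spread and changed only genes with higher counts. In the data the coefficient of variation was 0.354 in ctrl and 0.048 in Zfp276cko libraries, so these shares do not give the power here. Zfp276 itself, with a log2 fold change of −1.97, was not called by edgeR (adjusted p 0.0962). Levels per length used exons of GENCODE M21. Full statistics were given for the 10 members with the smallest p and those called by DESeq2, and for genes of the lists called by either tool. Other values were chosen for completeness or after they were seen. Some genes that these rules cover enter the counts and medians but are not reported here. Members and lists were chosen with earlier results of these data known. Further alternatives were size factors, filters, a replicate block, an unadjusted p, no thresholds on fold change and mean, and leaving out each library.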

Additional observations from a re-analysis of the deposited data

How the results depend on the processing

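No member was called by edgeR with size factors of DESeq2, without a filter, with at least 10 counts in every library, with a replicate block, or without thresholds on fold change and mean. DESeq2 called 3 members lower, and an unadjusted p gave 3 lower and 2 higher. Leaving out 1 library gave between 0 and 17 members lower (17 without ctrl replicate 1, 5 without ctrl replicate 2) and between 0 and 9 higher (3 and 9). The highest values arise without a ctrl library, where the remaining one is assumed to vary like the Zfp276cko libraries. In those fits edgeR also called many of all tested genes in both directions. Members were called at a larger share than all tested genes, except as higher without ctrl replicate 1. With a single ctrl library, the spread between ctrl preparations cannot be measured, so no conclusion is drawn from these counts. When 1 library was left out, the remaining Zfp276cko libraries were above every remaining ctrl library for 6 to 20 members and below for 9 to 26. The highest of these numbers come from comparisons with a single ctrl library, which is a looser criterion. The matching shares of all genes are not given here, so these numbers cannot be set against genes in general. With at least 10 counts in every library 3 were above. The median of the members ranged from −0.57 to 0.20 when 1 library was left out and was −0.07 with a replicate block. The labels do not say whether replicate numbers mark a pairing. The correlation of deviations between libraries of the same number was −0.005. With 2 libraries per genotype both pairs give this same value by construction, so it cannot settle the question. The paired fit with a replicate block turned Gria1 (0.36), Grin2b (0.92), Gabra5 (0.13) and Grik1 (0.15) to positive log2 fold changes. Gria3 was −0.013 with size factors of DESeq2 and −0.016 in DESeq2. Without 1 library the sign turned for 21 members. Ranges of those reported were −1.38 to 2.23 for Gria1, −0.33 to 0.10 for Gria2, −0.28 to 0.33 for Gria3, −0.13 to 0.039 for Gria4, −0.84 to 1.26 for Grik1, −0.18 to 0.51 for Grik2 and −0.0053 to 0.46 for Grik4. They were −1.48 to 1.35 for Grin2a, −1.41 to 3.84 for Grin2b, −0.54 to 1.90 for Grm3, −0.54 to 1.97 for Grm4, −0.60 to 0.22 for Grm5, −1.23 to 0.25 for Grm7 and −0.74 to 3.03 for Grm8. For GABA receptors they were −0.87 to 0.023 for Gabra2, −0.93 to 0.17 for Gabra4, −2.04 to 4.40 for Gabra5, −0.83 to 0.11 for Gabrb1 and −1.02 to 0.81 for Gabrr2. The cause was not tested. The other 15 tested members kept their sign in every alternative that gave a value. Where the genotypes did not overlap, leaving out 1 library could hardly turn the sign. With 4 reads per ctrl library for Gabre, depth limits its fold change.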
